A study of Mus musculus with 6 samples.

Results

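The 42 genes described here encode subunits of respiratory complexes II, III, IV and V, together with cytochrome c (Cycs) and a factor related to complex IV, in heart ventricles of mouse embryos. They were taken as every gene with a single platform symbol beginning with Uqcr, Cox4 to Cox8 or Atp5, the 4 Sdh subunit genes, Cyc1 and Cycs. The genes that belong to pairs of heart and general cytochrome oxidase isoforms (Cox6a1, Cox6a2, Cox7a1, Cox7a2, Cox8a and Cox8b) were left out. Of 18193 genes with a single symbol on the array, this gave 4 genes of complex II, 9 of complex III, 11 of complex IV, 17 of complex V and Cycs, read by 85 of the array's 45101 probe sets. Each gene was represented by the probe set with the highest mean log2(signal + 16). A filter on low signal, a mean over the 6 arrays above 95.2, was passed by 41 of the 42, the exception being Cox7b2.

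Ventricles from skNAC knockout embryos, which lack the muscle-specific long form of the Naca product, were set against those of their wild-type littermates, all of strain 129SvEv and at stage E11.5. Deletion is lethal by E12.5 with cardiac defects, per the labels. Each genotype had 3 Affymetrix whole-genome mouse arrays, made from 500 ng of total RNA each. They are called knockout 1, 26 and 66 and wild-type 13, 23 and 57, after their titles. The labels name no promoter or Cre driver for the deletion, and do not state whether hearts were pooled for an array. The p-values measure only the spread between these samples, which may be technical.

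The respiratory chain passes electrons from fuel molecules to oxygen and uses the energy released to pump protons out of the mitochondrial matrix. Complex II, succinate dehydrogenase, feeds electrons from the citric acid cycle, complex III passes them to cytochrome c, complex IV hands them to oxygen, and complex V, the ATP synthase, lets protons flow back to make ATP. The adult heart depends on this pathway for nearly all of its ATP, while the embryonic heart relies to a large part on glycolysis and its mitochondria mature during development.

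No member passed the test between genotypes once p-values were adjusted over all genes. In limma, 0 of the 41 tested members had an adjusted p under 0.05, against 0 of 11661 genes tested (0%). Of the 42 members, 21 were lower and 21 higher in knockout, with a median log2 difference (knockout minus wild-type, here and below) of 0.01. The median over the 11661 genes tested was 0.0023, with 49.6% of them lower. Over the 41 tested members it was 0.02, with 20 lower. By complex, the median was -0.14 for complex II, -0.03 for complex III, 0.11 for complex IV and 0.02 for complex V. The spread between arrays of a genotype, as the SD of the array medians, was 0.07 to 0.10 in these lists.

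At an unadjusted p under 0.05 there were 5 members, or 12.2%, against 4.69% of all genes tested. Sdhc, Sdhd and Atp5b were lower in knockout (2.51% of all genes were) and Uqcrb and Atp5k higher (2.18%). This count depended on the settings. It was 4 lower and 0 higher after quantile normalization (5.03% of all genes in either direction). With arrays centred on their medians it was 0 lower and 1 higher (3.02%), and with eBayes without a trend 1 lower and 0 higher (4.18%). Other settings raised it, to 3 lower and 3 higher with a stricter filter on low signal (5.18%) and with robust eBayes (4.82%). With array weights it was 3 lower and 4 higher (12.1%). The arrays of the genotypes did not overlap for 5 members, also 12.2%, against 10.9% of all genes tested, so this share lay near the background. These were Sdhc and Sdhd, lower in every knockout array (5.45% of all genes were), and Uqcrb, Atp5k and Atp5g3, higher in every knockout array (5.4%). The smallest adjusted p of any member in limma was 0.974.

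**Figure D1:**
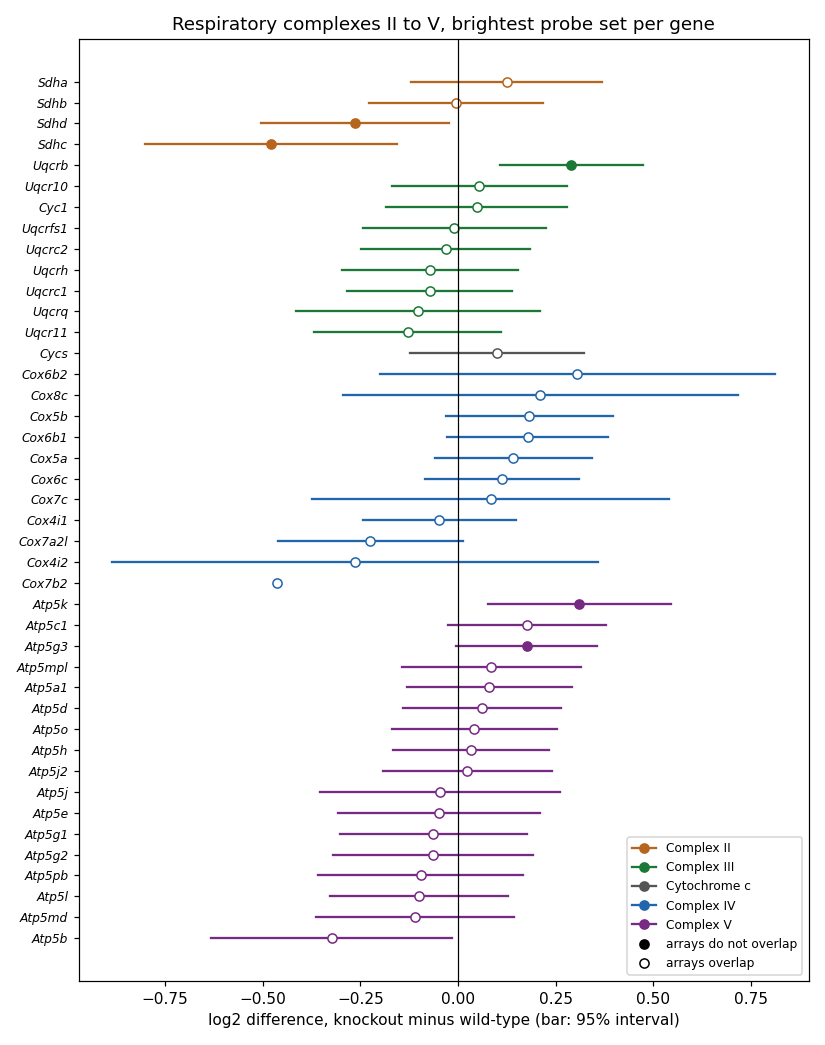
Log2 difference, knockout minus wild-type, of each of the 42 genes on its brightest probe set, with the 95% interval from limma as a bar (Cox7b2, below the filter, has none). Filled points mark the 5 genes whose arrays do not overlap between genotypes; the points lie on both sides of 0 within complexes II to V.

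Members were bright, and 36 of the 41 tested were among the 1167 tested genes of highest mean signal. Those genes as a whole had a median log2 difference of 0.04, with 35.3% of them lower in knockout. At an unadjusted p under 0.05, 10 of them were lower and 72 higher, and without overlap of the arrays 23 were lower and 146 higher. Quantile normalization, which equalises the signal distributions, brought their median to -0.0056, and 29 of the 42 members were lower, with a median of -0.06, against 0.0026 for all genes. Which side of 0 the whole list lay on therefore depended on the scaling.

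Several single arrays weighed on the list, and wild-type 57 was low for many members. Wild-type 57 was the lowest of the wild-type arrays for 35 of the 42 members and the lowest of all 6 arrays for 23. Averaged over the members, the deviation from a gene's own mean was -0.10 in wild-type 57, 0.08 in wild-type 13 and 0.03 in wild-type 23. In knockout 1, 26 and 66 it was 0.04, -0.05 and 0.01. The wild-type arrays thus spanned the knockout arrays. Without wild-type 57 the members' median was -0.06, with 27 lower, and without wild-type 23, 15 were lower. Leaving out knockout 26 gave a median of 0.06, and leaving out knockout 1 gave -0.05, with 23 lower. Knockout 66 stood apart from the other arrays on the first principal component of all kept probe sets (score 55.9, the others between -24.7 and 4.79). Without it the members' median was 0.01, with 19 lower.

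**Figure D2:**
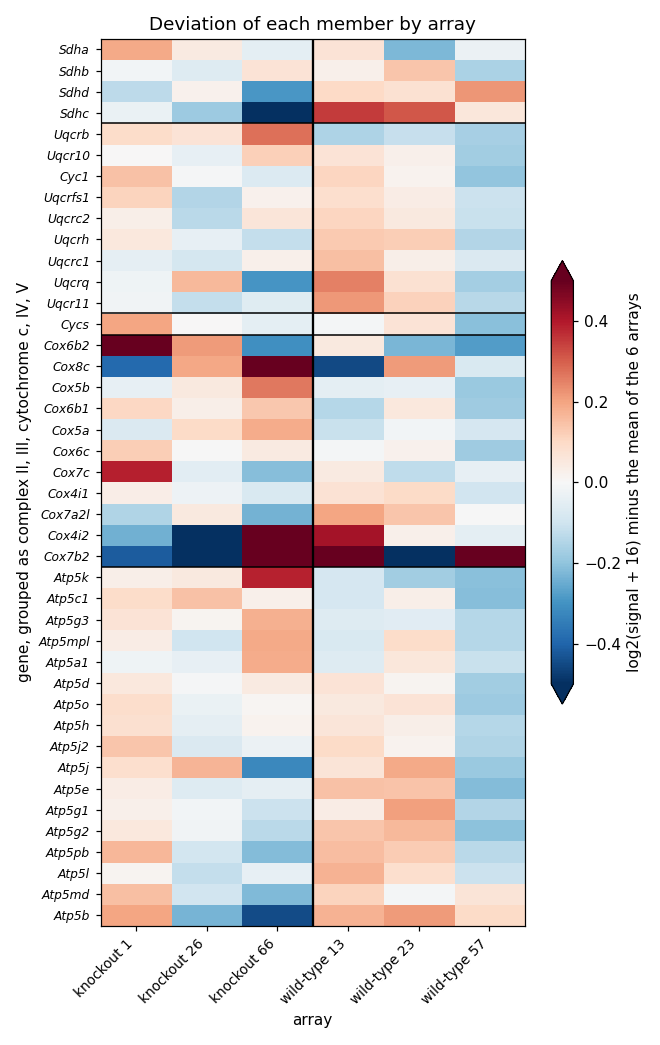
Deviation of log2(signal + 16) from the mean of the 6 arrays for each of the 42 genes (rows, by complex) in each array (columns, knockout to the left of the heavy line), with colours limited to 0.5 on either side. Wild-type 57 is the lowest of the 6 arrays for 23 genes, while Sdhc and Sdhd are low in knockout and Uqcrb and Atp5k high.

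Complex II consists of a flavoprotein (Sdha) and an iron-sulfur protein (Sdhb), which together oxidise succinate, held to the inner membrane by the anchors Sdhc and Sdhd. On their brightest probe sets the anchors were the lower genes of the complex. Sdhc read 1083, 975 and 778 in knockout 1, 26 and 66, compared with 1416, 1379 and 1155 in wild-type 13, 23 and 57. Every knockout array lay below every wild-type array, with a log2 difference of -0.48 ± 0.15 (SE) and a 95% interval from -0.80 to -0.16. Sdhd read 2486, 2766 and 2225 in knockout, compared with 2918, 2872 and 3177 in wild-type, a difference of -0.26 ± 0.11 (interval -0.51 to -0.02). Knockout 26 was the knockout array nearest to the wild-type range.

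The second probe set of either anchor did not show the same difference. For Sdhc it read 1138, 997 and 1166 in the knockout arrays, against 1241, 1110 and 855 in wild-type (0.05 ± 0.15), and for Sdhd 2982, 2306 and 2574 against 3081, 2142 and 2533 (0.03 ± 0.14). For both genes the genotypes overlapped on it. For Sdhc the choice of probe set turned on single arrays. The second became the brighter without wild-type 23, giving 0.09, and without wild-type 57, giving -0.10. For Sdhd the lower one is an _x_at probe set, a suffix that marks probes which can also match other transcripts. Without knockout 66 Sdhc stood at -0.35, and when probe sets were averaged Sdhc stood at -0.21 and Sdhd at -0.12.

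The catalytic pair showed no such separation. Sdhb, the brightest member of the complex, read 4817, 4661 and 5111 in knockout, against 4959, 5362 and 4364 in wild-type, a difference of -0.0054 ± 0.10 with an interval from -0.23 to 0.22. Its sign changed under 4 of the 6 arrays left out and with arrays centred on their medians. Sdha read 3303 ± 280 (SD, n = 3) in knockout and 3032 ± 309 in wild-type (0.12 ± 0.11). Further probe sets of Sdha gave 0.17 and -0.29, the latter a dim one.

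Complex III, the cytochrome bc1 complex, has a cytochrome b made in the mitochondrion and nuclear-encoded subunits. Uqcrb, a small subunit that binds ubiquinone, read 21910, 21567 and 24933 in knockout, compared with 18475, 18985 and 18345 in wild-type. All knockout arrays were above all wild-type arrays, by 0.29 ± 0.08 (interval 0.11 to 0.47). This was the smallest p of any member, at 0.00506 in limma before adjustment. After quantile normalization the difference was 0.015. The other Uqcrb probe set read 3760, 3311 and 2279 against 3907, 3481 and 3007, a difference of -0.17 ± 0.17, so it pointed the other way with overlapping arrays.

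The remaining 8 genes of complex III lay between -0.13 and 0.05. Uqcr11, a small subunit, had the next smallest p and read 3776, 3516 and 3661 in the knockout arrays, against 4444, 4132 and 3467 in wild-type (-0.13 ± 0.11). Wild-type 57 was the lowest of the 6 arrays, and wild-type 13 and 23 lay above every knockout array. The small subunits Uqcrq (-0.10 ± 0.14) and Uqcrh (-0.07 ± 0.10) were lower and Uqcr10 higher (0.05 ± 0.10), with overlapping arrays on these probe sets. An _x_at probe set of Uqcr10 was higher in all knockout arrays (0.23 ± 0.13), and a dim one gave -0.04 ± 0.23. The core proteins Uqcrc1 and Uqcrc2, which face the matrix, gave -0.07 ± 0.10 and -0.03 ± 0.10. A second probe set of Uqcrc2 gave -0.32 ± 0.19. The electron-carrying subunits, cytochrome c1 (Cyc1) and the Rieske iron-sulfur protein (Uqcrfs1), gave 0.05 ± 0.11 and -0.0091 ± 0.11.

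Cycs, the soluble carrier between complexes III and IV and a trigger of apoptosis when released into the cytosol, read 14128, 12360 and 11926 in knockout, compared with 12243, 12930 and 10666 in wild-type. The arrays overlapped, and the difference was 0.10 ± 0.10 (interval -0.12 to 0.32). It became -0.03 after quantile normalization, and the remaining 3 probe sets gave values from -0.08 to 0.03. RefSeq lists 3 pseudogenes named after Cycs, whose transcripts these probes could share.

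Complex IV, cytochrome c oxidase, has a catalytic core encoded in mitochondrial DNA surrounded by nuclear-encoded subunits, some of which come as isoforms of particular tissues. Of its 6 members used by most tissues, 5 were higher in knockout, with a median of 0.13, but none passed the test and all their arrays overlapped. The median of the complex's 11 members was 0.11, and after quantile normalization it was 0.03. Cox5b, the brightest, read 12868, 13698 and 15895 in the knockout arrays, against 12786, 12877 and 11629 in wild-type (0.18 ± 0.10). Knockout 66 was the highest of the 6 arrays, and the difference was 0.10 without that array. A second Cox5b probe set did not overlap between genotypes (0.19 ± 0.09), and a dim one was lower in all knockout arrays (195 against 251, -0.35 ± 0.18). The other kept probe sets of Cox5b gave 0.03 and 0.06 with overlapping arrays. The brightest is an _x_at probe set, and the difference was 0.064 without such probe sets, 0.024 when probe sets were averaged and 0.035 after quantile normalization.

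Cox6b1, which faces the intermembrane space where cytochrome c docks, read 7704, 7314 and 7877 in knockout, compared with 6488, 7439 and 6341 in wild-type. Only wild-type 23 lay within the knockout range, and the difference was 0.18 ± 0.09. Its other probe set gave 0.03 ± 0.10. Its relative Cox6b2, an isoform known from testis, was dim, with 371, 290 and 197 against 257, 209 and 201 (0.31 ± 0.23). Knockout 66 was the lowest of the 6 for Cox6b2, and the difference was 0.54 without it and 0.11 without knockout 1. Cox5a, which sits on the matrix face, gave 0.14 ± 0.09, and Cox6c, a small membrane subunit, 0.11 ± 0.09. The other probe sets of Cox5a gave 0.11 ± 0.11 and -0.35 ± 0.25, and averaging them all put Cox5a at -0.03. The other probe set of Cox6c gave 0.01 ± 0.24. Cox7c gave 0.08 ± 0.21 on a dim probe set of 218 against 202.

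Cox4i1 and Cox4i2 are alternative forms of the subunit through which ATP regulates the enzyme, the second being known as oxygen-responsive and as a lung isoform. Cox4i1 read 8814, 8455 and 8165 in the knockout arrays, against 9059, 9217 and 8057 in wild-type, a difference of -0.05 ± 0.09 with an interval from -0.24 to 0.15. Cox4i2 read 205, 146 and 361 in knockout, compared with 332, 250 and 236 in wild-type, a difference of -0.26 ± 0.28. Knockout 66 was the highest of the 6 arrays and knockout 1 and 26 the lowest, so the value was -0.59 without knockout 66 and 0.01 without knockout 26. The testis isoforms Cox8c (759 ± 232 against 644 ± 149, 0.21 ± 0.23) and Cox7b2 (32.6 ± 32.3 against 48.9 ± 31.8, not tested) showed no separation of the genotypes. A second Cox8c probe set, ending in _x_at, gave 0.62 ± 0.38 with overlapping arrays. With each array left out, Cox8c ranged from 0.0079 to 0.46.

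Cox7a2l, a relative of the Cox7a isoforms that joins complexes III and IV into supercomplexes, was the member of smallest p in this group and the lowest apart from the dim genes Cox4i2 and Cox7b2. It read 3225, 3710 and 3042 in the knockout arrays, against 4112, 3947 and 3582 in wild-type. Knockout 26 overlapped the wild-type range, and the difference was -0.22 ± 0.11 (interval -0.46 to 0.01). A second probe set was lower in all knockout arrays (-0.16 ± 0.11), while another stood at 0.12 ± 0.14.

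Complex V is a rotary motor with a catalytic F1 head, a ring of c subunits in the membrane, a peripheral stalk and small membrane subunits that help it form dimers. Atp5b, the catalytic beta subunit, read 10437, 7742 and 6671 in knockout, compared with 10283, 10564 and 9729 in wild-type. Knockout 1 lay within the wild-type range and the other knockout arrays below it, with a difference of -0.32 ± 0.14 (interval -0.63 to -0.01). It was -0.50 without knockout 1 and -0.18 without knockout 66. Atp5b has 1 probe set. Of the other subunits of the head and central stalk, 3 were higher and 1 lower, all with overlapping arrays. Atp5a1 (alpha, which alternates with beta in the head) gave 0.08 ± 0.10, Atp5c1 (gamma, the rotor shaft) 0.18 ± 0.09, Atp5d (delta) 0.06 ± 0.09 and Atp5e (epsilon) -0.05 ± 0.12.

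Atp5g1, Atp5g2 and Atp5g3 are separate genes for the same mature c subunit. Atp5g3 read 15311, 14733 and 16521 in the knockout arrays, against 13955, 14026 and 13209 in wild-type, higher in every knockout array by 0.18 ± 0.08 (interval -0.0050 to 0.36). The difference was 0.03 after quantile normalization and 0.13 without knockout 66. Atp5g1 read 3981, 3872 and 3634 against 4009, 4517 and 3528 (-0.06 ± 0.11), and Atp5g2 read 4103, 3907 and 3598 against 4353, 4420 and 3430 (-0.06 ± 0.12). For both, the knockout arrays lay within the wild-type range.

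Atp5k, the small e subunit at the dimer interface, read 10234, 10367 and 13097 in knockout, compared with 9446, 8890 and 8660 in wild-type. All knockout arrays were higher, by 0.31 ± 0.11 (interval 0.08 to 0.55), with knockout 66 the highest. The value was 0.20 without knockout 66 and 0.18 after quantile normalization. Its other probe sets, both ending in _x_at, gave 0.15 ± 0.10 and -0.07 ± 0.11. RefSeq lists 4 pseudogenes named after Atp5k, the most of any member when counted by name. Atp5l, the g subunit, read 3671, 3348 and 3535 against 4110, 3858 and 3378 (-0.10 ± 0.10). Wild-type 57 lay within the knockout range and the other wild-type arrays above it. The remaining membrane subunits were Atp5j2 (f subunit, 0.02 ± 0.10), Atp5md (-0.11 ± 0.12) and Atp5mpl (0.09 ± 0.10). The peripheral stalk genes Atp5pb (-0.10 ± 0.12), Atp5h (0.03 ± 0.09), Atp5j (-0.05 ± 0.14) and Atp5o (0.04 ± 0.10) lay close to 0 on both sides, and their arrays overlapped.

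**Figure D3:**
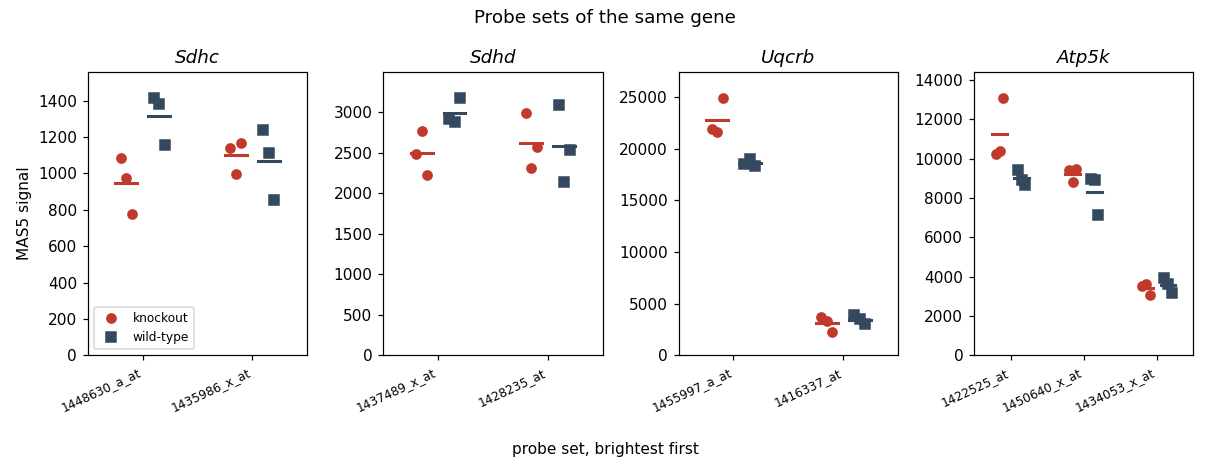
MAS5 signal in the 3 knockout (circles) and 3 wild-type (squares) arrays, with group means as bars, for each kept probe set of Sdhc, Sdhd, Uqcrb and Atp5k, brightest to the left. The genotypes separate on the brightest probe set of each gene and overlap on the others.

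Disagreement between probe sets was common among the members. Of the 22 with more than 1 kept probe set, 14 had at least 1 of the opposite sign to the brightest, and these include 4 of the 5 members whose genotypes did not overlap (Sdhc, Sdhd, Uqcrb and Atp5k). When probe sets were averaged, 1 member (Atp5b) had an unadjusted p under 0.05 in limma, against 4.8% of all genes tested. The genotypes did not overlap for 1 (Atp5g3), against 10.9% of all genes tested. Atp5b and Atp5g3 have 1 probe set each, so averaging could not change their values. RefSeq lists pseudogenes named after 8 members (Cycs, Uqcrh, Cox5b, Cox7c, Atp5k, Atp5c1, Atp5l and Atp5pb), so the values of these are uncertain. Only pseudogenes carrying the gene's own symbol were counted. Those listed under other symbols were missed, so the other members may have some too. The 3' to 5' signal ratio of the actin control was 2.49 to 2.57 in knockout and 2.05 to 2.24 in wild-type, and that of Gapdh was 1.28 to 1.45 against 1.12 to 1.20, and their part in these differences was not tested.

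Promoters of the members were searched for motifs of factors known to act on respiratory genes, NRF1 and the ETS family with GABP, and for the CCAAT box. RefSeq promoter sequences (GRCm38.p6) matched 31 of the 42 members, and the 250 bases before each start were searched on both strands. The NRF1 core, GCGC, any 2 bases and GCGC again, was found in 6 members (19.4%) and in 5.64% of 27025 genes. The ETS core, CCGGAAG, was found in 8 (25.8%, against 7.83%), and CCAAT in 17 (54.8%, against 37.5%). The windows of the members held a median of 14.5 CG dinucleotides and those of all genes 6.0. The 27025 genes were all those with a promoter entry, and were not matched to the members in signal or CG content. The shares are therefore no measure of motif enrichment. Members with the NRF1 core had a median log2 difference of 0.08, with 2 of 6 lower, and those without it -0.0091, with 14 of 25 lower. Members with the ETS core had a median of -0.06, with 6 of 8 lower, and those without it 0.04, with 10 of 23 lower. The 80 bases before the start are shown for the 3 members with an entry whose arrays did not overlap between genotypes, with the NRF1 and ETS cores in capitals. All 3 lie on the minus strand: Sdhd at chr9:50603850-50603929, Atp5k at chr5:108434400-108434479 and Atp5g3 at chr2:73911327-73911406.
Sdhd: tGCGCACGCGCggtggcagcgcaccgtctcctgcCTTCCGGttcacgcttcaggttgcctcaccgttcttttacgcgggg
Atp5k: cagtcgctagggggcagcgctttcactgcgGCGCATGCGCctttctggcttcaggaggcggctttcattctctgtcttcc
Atp5g3: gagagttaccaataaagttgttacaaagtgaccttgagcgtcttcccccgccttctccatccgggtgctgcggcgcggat
Sdhd, lower in knockout on its brightest probe set, and Atp5k, higher, both carried the NRF1 core, Sdhd also carried the ETS core in reverse orientation, and Atp5g3 carried neither in its 250 bases.

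Other genes of the pathway were likewise without a call. Of 35 measured assembly and maturation factors, 16 were lower in knockout and the median was 0.015. At an unadjusted p under 0.05 there was 1 of the 33 tested, against 4.69% of all genes tested. That gene was Cox10, which makes the haem of complex IV (546 ± 56.2 against 428 ± 44.7, 0.34 ± 0.15). Cox16, a complex IV assembly factor, gave 0.28 ± 0.15 and Pet100, another, -0.27 ± 0.15. The citric acid cycle and its pyruvate entry, with complex II set aside, had 12 of 17 lower, 2 of them (Idh2 and Suclg2) at an unadjusted p under 0.05 (2.51% of all genes tested were lower at that p), and a median of -0.05. Idh2, the NADP-dependent isocitrate dehydrogenase, was lower in all knockout arrays (2871 ± 114 against 3405 ± 219, -0.24 ± 0.10), as was Ogdh of the oxoglutarate dehydrogenase complex (-0.23 ± 0.13). Among all genes tested, 5.45% were lower in all knockout arrays. Suclg2, a succinyl-CoA ligase subunit, gave -0.52 ± 0.22 with overlapping arrays.

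Mitochondrial import, channel and chaperone genes outside the chain had 13 of 19 higher and a median of 0.10, and 7 of them were higher in all knockout arrays, as were 5.4% of all genes tested and 146 of the 1167 brightest. Phb2, a prohibitin of the inner membrane, read 3345 ± 205 against 2682 ± 191 (0.32 ± 0.10), Timm50, an inner membrane import subunit, gave 0.34 ± 0.14 and the chaperonin gene Hspd1 gave 0.19 ± 0.08. The adjusted p in limma was 0.974 for each of these 3. Factors of mitochondrial transcription, translation and DNA replication split 9 lower and 10 higher (median 0.0056). Of these, the transcription elongation factor gene Tefm gave 0.26 ± 0.16. The replication genes Ssbp1, for a DNA-binding protein, and Polg, for a DNA polymerase, gave 0.24 ± 0.15 and 0.22 ± 0.16. Of the 13 respiratory genes of mitochondrial DNA, only ND5 of complex I had a probe set with a listed symbol, at -0.07 ± 0.10.

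**Figure D4:**
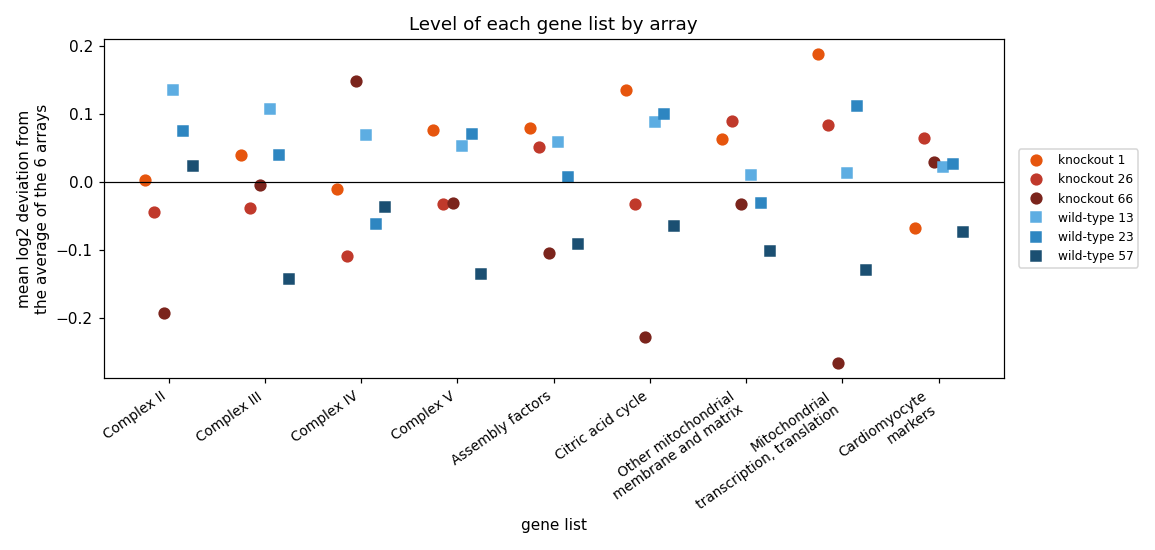
Mean log2 deviation from the average of the 6 arrays for complexes II to V, 4 lists of other mitochondrial genes and cardiomyocyte markers, with 1 point per array (circles knockout, squares wild-type). Wild-type 57 is the lowest array for complexes III and V, other membrane and matrix proteins and cardiomyocyte markers. Knockout 66 is the lowest for complex II, assembly factors, the citric acid cycle and the list of transcription, translation and DNA replication factors.

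The arrays read markers of heart muscle, a list not chosen to tell ventricle from other parts of the heart. All 15 cardiomyocyte markers were above the filter, including Nkx2-5, Tnnt2 and Myl2. Their summed signal was 149704 to 167475 in knockout and 143354 to 156879 in wild-type, and 4 of 15 were lower in knockout. Markers of cushion mesenchyme were lower for 7 of 10 and higher for 3, with sums of 6476 to 8677 against 7902 to 8718. At an unadjusted p under 0.05 in limma 4 of them were lower, as were 2.51% of all genes tested. The adjusted p was 0.974 for each of these 4. Erythroid sums were 55802 to 76028 against 51200 to 61917. Summed endothelial (5398 to 5875 against 5513 to 5688) and epicardial (5631 to 6457 against 5397 to 5897) markers overlapped between genotypes. The 10 epicardial markers split 5 lower and 5 higher, with a median of 0.02. Among them the keratin gene Krt8 was higher in every knockout array (1257 ± 315 against 706 ± 94.2, 0.80 ± 0.18), with an adjusted p of 0.742 in limma. The keratin gene Krt18 gave 0.13 ± 0.14 with overlapping arrays. The summed macrophage and platelet markers did not overlap, at 2228 to 2395 in knockout against 2398 to 2881. Of these 8 markers 5 were lower and 3 higher, with a median of -0.02, and 3 were below the filter. The platelet chemokine gene Ppbp was lower in every knockout array (462 ± 41.9 against 688 ± 44.2, -0.56 ± 0.14), with an adjusted p of 0.919 in limma. Csf1r was also lower in every knockout array (-0.22 ± 0.15). The other platelet genes Pf4 (-0.04 ± 0.13) and Itga2b (-0.01 ± 0.24) overlapped between genotypes. All 4 hepatic markers (sums 229 to 390 against 136 to 178, without overlap) and 2 of 5 measured neural markers were below the filter. In whole ventricles, fewer cells of a type and less RNA per cell cannot be told apart, and the part of these markers in the members' values was not tested. Naca, on its brightest probe set, read 8892 ± 258 in knockout and 8412 ± 142 in wild-type (0.08 ± 0.08). Whether that probe set reads the deleted stretch is unknown, so it checks no genotype label.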

How the data were processed

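Signals are deposited as linear probe set intensities, computed by the authors in GCOS with MAS5, as the submitters' processing notes list. Software versions and settings are not stated. All arrays share a 2% trimmed mean of 250.0, so an intensity is relative to its own array. Intensities were transformed as log2(intensity + 16). The 22518 probe sets above the median of the non-control ones were fitted with limma 3.58.1 in R 4.3.3 (lmFit, then eBayes using a mean-variance trend; two-sided tests). Each gene took its brightest kept probe set, and p-values were adjusted by Benjamini-Hochberg over 11661 genes. The fit was tested on simulated data. No batch is labelled. With 3 arrays a genotype, the number of arrays sets the precision: the median SE was 0.10 for tested members and 0.19 for all genes.

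Per complex, every array's value was given for the brightest member and the 2 of smallest p, and for named paralogs. Other pathway lists name up to 3 genes of smallest p. Members and lists were chosen with earlier results of these data known. The 18 alternatives were pseudocounts of 1 and 64, no or a stricter filter, quantile and median scaling, eBayes settings, array weights, other probe set choices, an adjusted p of 0.1 and each array left out. Figures used Matplotlib 3.10.9.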

Additional observations from a re-analysis of the deposited data

How the results depend on the processing

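No member was called under any of the 18 alternatives. Over the whole array, 0 genes were called with limma at an adjusted p of 0.05 (547 at an unadjusted p under 0.05). With array weights 8 were, and 0 to 2 with each array left out. The median of complex II, -0.14, was 0.011 when _x_at and _s_at probe sets were dropped, -0.062 when a gene's probe sets were averaged and -0.16 to 0.053 with each array left out. The median of complex IV, 0.11, was 0.025 after quantile normalization, 0.024 when probe sets were averaged and 0.079 to 0.15 with each array left out. Leaving out arrays gave medians of -0.095 to 0.029 for complex III, -0.046 to 0.067 for complex V and -0.056 to 0.062 for all members, of which 15 to 27 were lower. Signs changed mainly for small differences, and the cause was not tested. After quantile normalization Cycs was at -0.027, Atp5j2 at -0.062, Atp5h at -0.049, Atp5a1 at -0.0055, Atp5d at -0.0086, Atp5o at -0.033, Atp5mpl at -0.0020 and Cyc1 at -0.035. Centring arrays on their medians put Sdhb at 0.0072 and Uqcrfs1 at 0.0036. Array weights put Atp5j2 at -0.033, Atp5h at -0.017, Atp5o at -0.013, Atp5mpl at -0.033, Atp5j at 0.039, Uqcr10 at -0.0092 and Uqcrq at 0.013. Dropping _x_at and _s_at probe sets put Sdhd at 0.027 and Cox7c, on a probe set below the filter, at -0.63. Averaging probe sets put Cox5a at -0.031, Atp5d at -0.0033 and Atp5o at -0.099. The members that changed sign when an array was left out ranged from -0.011 to 0.11 for Atp5d, -0.17 to 0.013 for Atp5e, -0.15 to 0.025 for Atp5g1, -0.030 to 0.072 for Atp5h, -0.15 to 0.10 for Atp5j, -0.046 to 0.078 for Atp5j2, -0.039 to 0.088 for Atp5o, -0.59 to 0.013 for Cox4i2, -0.089 to 0.21 for Cox7c, -0.039 to 0.11 for Cyc1, -0.085 to 0.063 for Sdhb, -0.58 to 0.090 for Sdhc, -0.019 to 0.10 for Uqcr10, -0.095 to 0.029 for Uqcrc2, -0.067 to 0.063 for Uqcrfs1 and -0.21 to 0.020 for Uqcrq. Of the 41 tested members, 20 kept their sign under all alternatives. No paired analysis was possible because the genotypes share no replicate number. Low signal limits Cox4i2, Cox6b2, Cox7b2 and Cox7c.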
